A study of Homo sapiens with 6 samples.

Results

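Of the genes measured in H69 and H69M, 8 encode cell surface proteins that are widely used as stem, tumour-initiating or mesenchymal cell markers: CD44, CD24, PROM1, EPCAM, KIT, NT5E, THY1 and MCAM. They were taken by their symbols in the platform annotation, with the brightest probe set (a group of probes summarised to 1 value) for each gene, and all 8 were among the 18404 genes measured. H69 and H69M are human small cell lung cancer lines. Total RNA of each line was hybridised to 3 whole-transcript arrays, with no treatment, dose or time given for either group. How H69M was obtained, and whether the arrays of a line came from separate cultures, is not stated in the labels, so the spread and the p-values below are those between arrays of 1 line each and may be technical.

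These proteins sit on the plasma membrane and are used to sort cells. NT5E (CD73), THY1 (CD90) and MCAM (CD146) are used as markers of cultured mesenchymal stromal cells, and MCAM also of pericytes. CD44, the receptor for the matrix sugar hyaluronan, marks mesenchymal cells and tumour-initiating fractions of several carcinomas. CD24 and EPCAM are surface proteins of epithelial cells, PROM1 (CD133) is a pentaspan protein of membrane protrusions used to select tumour-initiating cells, and KIT (CD117) is the receptor tyrosine kinase for stem cell factor, known from haematopoietic, mast and germ cells and present in many small cell lung cancers.

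The stromal markers NT5E, MCAM and THY1 and the hyaluronan receptor CD44 were higher in H69M, by 33.8-, 6.11-, 5.18- and 3.10-fold. PROM1 was higher by a smaller step, 1.32-fold, and the epithelial markers CD24 and EPCAM were 1.85- and 1.48-fold lower. KIT did not pass the test. In counts, 5 of the 8 genes were higher and 2 lower past an adjusted p of 0.05 (limma, Benjamini-Hochberg), where 21.0% of all genes were called higher and 23.2% lower (44.2% in either direction). At least 2-fold, 4 of the 8 were higher and 0 lower, against 5.56% and 2.72% of all genes. The median difference of the 8 was 1.02 in log2, and that of all genes was -0.041. Since the members were chosen with earlier results of these data known, setting them beside all genes describes them and tests nothing. The groups were fully apart for 7 of the 8 genes, 5 higher and 2 lower in H69M, which held for 55.8% of all genes (25.8% higher and 30.0% lower). With each array centred on its median, 3110 of all genes were higher and 6827 lower, in place of 3866 and 4274, while the members stayed at 5 and 2.

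The arrays of a line correlated with each other across genes with r between 0.995 and 0.998, and arrays of different lines with r between 0.938 and 0.950. The label was checked against a list of neuroendocrine small cell lung cancer markers. Their summed level, on the linear scale, lay between 12198 and 12492 in the H69 arrays and between 7769 and 8871 in the H69M arrays. Of the 10 measured, 8 were lower and 0 higher in H69M by limma, with 8 and 0 at an unadjusted p under 0.05 as well; NCAM1 (-1.35), CHGB (-1.14), GRP (-1.07) and SCG2 (-1.02) were among them. UCHL1 (11.42 in H69 and 11.54 in H69M) and CHGA (8.29 and 8.03) did not pass; CHGA passed as lower with centred arrays (limma adjusted p = 0.0297) or without H69M replicate 1 (0.0160), and UCHL1 as higher with eBayes trend (0.0401).

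**Figure D1:**
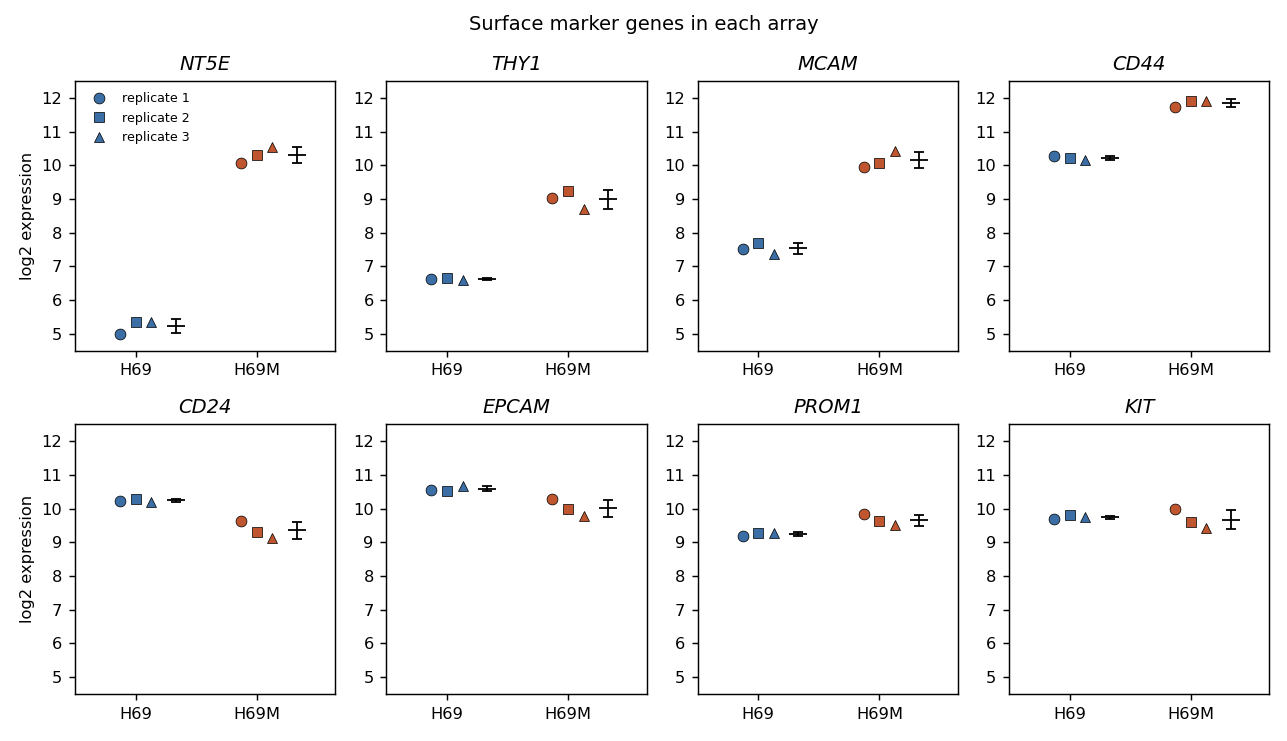
Log2 expression of the 8 marker genes in each array, with H69 in blue and H69M in orange; the symbol shape gives the replicate number, and the black bar beside each group is its mean with 1 SD over 3 arrays. NT5E runs from about 5.22 to 10.30 on average, while the KIT arrays of H69M lie on both sides of those of H69.

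NT5E encodes the membrane-anchored enzyme that turns extracellular AMP into adenosine. Its log2 values were 4.99, 5.35 and 5.34 in the H69 arrays and 10.07, 10.30 and 10.53 in the H69M arrays. Every H69M array lay more than 4 log2 units above every H69 array. The difference was 5.08 ± 0.14 (log2, SE; 95% interval 4.76 to 5.40; limma adjusted p = 1.74e-07), the 35th largest rise of the 18404 genes. These values carry no detection call, so whether the H69 level is above background is not known, and if it is not, the fold is too small. In RNA from a culture, more cells with a transcript and more transcript per cell cannot be told apart, and this holds for each gene below.

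MCAM, an immunoglobulin-type adhesion molecule of pericytes, endothelium and melanoma cells, had log2 values of 7.52, 7.70 and 7.38 in H69 and 9.96, 10.07 and 10.41 in H69M. The groups did not overlap, and the lowest H69M array was replicate 1. The difference was 2.61 ± 0.13 (log2, SE; 95% interval 2.31 to 2.91; limma adjusted p = 2.80e-06). THY1, a small glycolipid-anchored protein of fibroblasts, neurons and thymocytes, stood at 6.62, 6.66 and 6.59 in H69 and at 9.04, 9.25 and 8.69 in H69M. H69M replicate 3 was the lowest of its group and still lay above every H69 array. The difference was 2.37 ± 0.13 (log2, SE; 95% interval 2.08 to 2.67; limma adjusted p = 4.10e-06).

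CD44 had log2 values of 10.27, 10.21 and 10.17 in H69 and 11.72, 11.92 and 11.91 in H69M. All H69M arrays lay above all H69 arrays, with replicate 1 the lowest of them. The difference was 1.63 ± 0.072 (log2, SE; 95% interval 1.47 to 1.80; limma adjusted p = 1.44e-06). With 1 value for the gene, the standard and variant splice forms of CD44 were not separated.

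The sequence before the transcription start is shown for the members with 1 promoter window each in the reference: NT5E, MCAM and CD44, which rose, and KIT, which did not pass. The windows are the 250 bases before the start, from RefSeq (GRCh38.p14), 5′ to 3′ on the gene's strand. The array's own build is not given in the sources used here, so these windows were matched by gene symbol only. Capitals mark matches to any of 5 motifs on either strand: AP-1 (TGANTCA), TEAD (GGAATG), the E-box bound by ZEB and SNAI proteins (CACCTG), the Sp1 box (GGGCGG) and the cyclic AMP response element (TGACGTCA).
NT5E (chr6:85449833-85450082, + strand): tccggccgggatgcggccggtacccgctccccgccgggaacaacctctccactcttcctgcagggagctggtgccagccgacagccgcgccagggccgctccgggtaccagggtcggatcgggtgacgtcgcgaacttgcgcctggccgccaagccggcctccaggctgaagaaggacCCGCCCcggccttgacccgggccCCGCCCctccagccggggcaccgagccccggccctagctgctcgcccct
MCAM (chr11:119317131-119317380, - strand): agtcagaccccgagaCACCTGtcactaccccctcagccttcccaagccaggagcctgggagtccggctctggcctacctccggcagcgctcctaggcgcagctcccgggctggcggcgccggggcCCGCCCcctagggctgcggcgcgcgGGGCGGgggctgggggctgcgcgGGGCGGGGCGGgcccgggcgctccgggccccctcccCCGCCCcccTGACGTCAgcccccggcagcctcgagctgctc
CD44 (chr11:35138921-35139170, + strand): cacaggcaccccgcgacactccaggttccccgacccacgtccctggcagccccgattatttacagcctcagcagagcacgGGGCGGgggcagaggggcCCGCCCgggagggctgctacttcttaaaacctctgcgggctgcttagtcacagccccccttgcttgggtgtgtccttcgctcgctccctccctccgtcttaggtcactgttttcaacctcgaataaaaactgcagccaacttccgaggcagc
KIT (chr4:54657707-54657956, + strand): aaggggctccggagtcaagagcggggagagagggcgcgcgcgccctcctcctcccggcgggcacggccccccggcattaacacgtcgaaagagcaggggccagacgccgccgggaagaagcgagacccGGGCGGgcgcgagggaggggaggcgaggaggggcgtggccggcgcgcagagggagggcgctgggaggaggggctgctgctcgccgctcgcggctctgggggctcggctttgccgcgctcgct

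All 4 windows held the Sp1 box, with 2 matches each in NT5E and CD44, 5 in MCAM and 1 in KIT; a pair of the MCAM matches overlaps by 1 base. Of 34943 promoter windows in the reference, 42.5% hold it. MCAM also had an E-box, 235 bases before the start, and a cyclic AMP response element, 32 bases before it, which 17.5% and 1.63% of windows hold. Neither AP-1 nor TEAD letters were found in these 4 windows; 6.59% and 11.9% of all windows hold them. PROM1 (4 windows) and CD24 (3 windows) also matched the reference, so 6 of the 8 genes did. A match describes these letters and was not tested as a binding site.

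CD24, a short, heavily glycosylated, glycolipid-anchored protein of the cell surface, had log2 values of 10.22, 10.29 and 10.21 in H69 and 9.63, 9.30 and 9.12 in H69M. All H69M arrays lay below all H69 arrays, with replicate 1 the nearest. The difference was -0.89 ± 0.12 (log2, SE; 95% interval -1.17 to -0.61; limma adjusted p = 0.000571). CD24 has near-identical copies elsewhere in the genome; whether its 1 probe set also reads them was not tested, so this value is uncertain.

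EPCAM, a homophilic adhesion molecule of simple epithelia, stood at 10.55, 10.53 and 10.67 in H69 and at 10.27, 9.99 and 9.78 in H69M. The groups did not overlap, although H69M replicate 1 came within 0.5 of each H69 array. The difference was -0.57 ± 0.12 (log2, SE; 95% interval -0.85 to -0.29; limma adjusted p = 0.0057). EPCAM is the 1 gene of the 8 with more than 1 probe set. The other one gave a difference of -0.46 ± 0.097 (limma adjusted p = 0.00628 over 19158 probe sets), in the same direction. Where each of these probe sets maps in the genome was not checked, so the size of the EPCAM difference is uncertain.

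PROM1 went the other way from CD24 and EPCAM. Its log2 values were 9.17, 9.29 and 9.28 in H69 and 9.83, 9.62 and 9.51 in H69M. The groups did not overlap, and replicate 1 was the highest H69M array. The difference was 0.41 ± 0.089 (log2, SE; 95% interval 0.20 to 0.61; limma adjusted p = 0.0069), of a size that 74.0% of all genes did not reach in either direction. PROM2, the related protein of epithelial cells, fell by 0.30 (5.57 to 5.27).

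KIT had log2 values of 9.70, 9.79 and 9.74 in H69 and 9.98, 9.60 and 9.42 in H69M. H69M replicate 1 was above every H69 array, and replicates 2 and 3 were below every one. The difference was -0.075 ± 0.13 (log2, SE; 95% interval -0.38 to 0.23; limma adjusted p = 0.677), so a change of a size within that interval was not resolved. Without H69M replicate 1 it was -0.23 and passed (limma adjusted p = 0.0476), and without H69M replicate 3 it was 0.046 (limma adjusted p = 0.784).

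**Figure D2:**
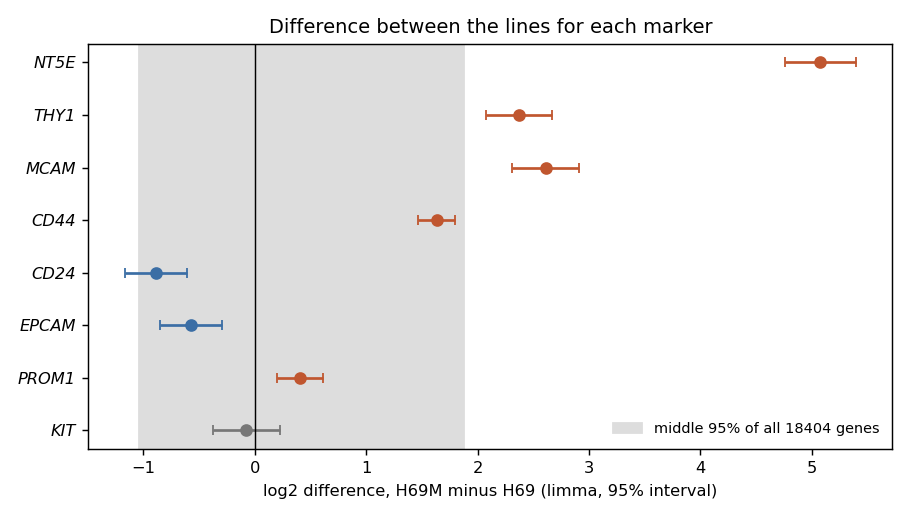
Log2 difference between H69M and H69 for each marker with its 95% interval from limma (orange higher, blue lower, grey not past the threshold); the shaded band, from -1.04 to 1.88, holds the middle 95% of all 18404 genes. NT5E, MCAM and THY1 lie above the band with their whole intervals, the CD24 interval crosses the lower edge, and the other markers lie inside it.

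The H69M arrays spread more than the H69 arrays in all 8 genes, as in 57.3% of all genes. For CD24, EPCAM, PROM1 and KIT the ranges in H69M were 0.509, 0.498, 0.319 and 0.553, against 0.0804, 0.139, 0.114 and 0.098 in H69. In each of these 4 genes H69M replicate 1 was the highest and replicate 3 the lowest, as in 22.7% of all genes. NT5E and MCAM had replicate 3 highest and replicate 1 lowest, as in 15.3%. Replicate 1 was the H69M array nearest to the H69 mean in 5 of the 8 members and in 55.0% of all genes that passed the test.

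Around CD44, part of the hyaluronan axis was higher in H69M. Of 19 measured genes of the hyaluronan and CD44 axis, 10 rose and 0 fell by limma (13 and 2 at an unadjusted p under 0.05), with a median of 0.30. Over all genes, 21.0% were called higher and 23.2% lower, shares that also stand beside the list counts below. HAS2, a hyaluronan synthase, rose from 4.48 ± 0.13 to 8.27 ± 0.063 (log2, SD, n = 3). MSN, moesin, which links CD44 to actin, rose by 3.45 ± 0.22 (log2, SE), the CD44-cleaving membrane protease MMP14 by 3.03 ± 0.32 and the hyaluronan-binding proteoglycan VCAN by 2.59 ± 0.089. RDX, radixin, the other measured linker of the moesin family, had a difference of 0.014 (limma adjusted p = 0.872). HAS3, another synthase, differed by 0.28 and missed the threshold (limma adjusted p = 0.0609), which it passed once genes under the 25th percentile were not tested (0.0438). That 0 fell depended on the setting: 3 fell with the arrays centred on their medians and 3 with quantile normalization applied again.

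NT5E acts at the end of a chain that breaks down extracellular ATP. Of 23 genes of extracellular purine metabolism and its receptors, 6 rose and 7 fell (median 0.10). These counts are near the shares of all genes, 21.0% called higher and 23.2% lower. ENPP1, which splits ATP to AMP, the substrate of NT5E, rose from 5.48 ± 0.33 to 9.73 ± 0.24 (log2, SD, n = 3), or 19.1-fold. ENTPD1 (CD39), the other classical source of AMP, had a difference of -0.16 (limma adjusted p = 0.197), which was -0.26 and passed without H69 replicate 1 (0.0191), and ENTPD3 fell by 1.45 ± 0.19 (log2, SE). Downstream, the adenosine receptor gene ADORA2B rose by 1.30 ± 0.14, and DPP4, the surface anchor of adenosine deaminase, by 1.35 ± 0.25.

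Other markers of mesenchymal stromal cells rose with NT5E, THY1 and MCAM. Of 18 measured, 13 rose and 1 fell (median 1.03); the one that fell, named after its value was seen, was SUSD2 (-0.37; not past the threshold without H69 replicate 1, limma adjusted p = 0.0511). MME, the protease CD10, rose by 6.20 ± 0.10 (log2, SE), the adhesion molecule ICAM1 by 3.96 ± 0.26, the receptor PDGFRB by 3.15 ± 0.17 and endosialin, CD248, by 2.57 ± 0.17. ENG (CD105), which is read together with CD73 and CD90 to define stromal cells, rose from 7.04 ± 0.079 to 8.51 ± 0.11 (log2, SD, n = 3). ALCAM (CD166) rose by 0.33.

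Of 6 haematopoietic markers, which stromal cells lack, 1 rose and 4 fell. Their mean level lay between 5.20 and 5.33 (log2) in H69 and between 5.12 and 5.21 in H69M. CD34 rose by 0.53, and PTPRC (-0.35), CD14 (-0.31), CD79A (-0.22) and CD3E (-0.20) fell. Such levels are low: NT5E in H69, at 5.22, stood at percentile 21.3 of all genes. Without a detection call, whether these genes were detected in either line is not known. The calls of CD79A and CD3E were lost with eBayes trend (limma adjusted p = 0.0609 and 0.0762), and under 5 and 4 other alternatives.

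Partners of THY1 and MCAM were mostly higher. Of 24 measured, 14 rose and 3 fell (median 0.37); the 3 lower ones, chosen after seeing their values, were PAG1 (8.20 to 7.20, log2), FYN (-0.87) and S100A8 (-0.76). LAMA4, the chain of the laminins that MCAM binds, rose by 3.75 ± 0.19 (log2, SE). The integrin subunit ITGB3, part of the THY1 receptor alpha-v beta-3, rose by 2.13 ± 0.062, ITGA5 by 6.99 ± 0.097, and LGALS1, a galectin that binds MCAM, by 4.93 ± 0.090.

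In the list of EPCAM partners and epithelial surface proteins, most genes were lower, as CD24 and EPCAM were. Of 19 measured, 11 fell and 1 rose (median -0.30). These counts include SIGLEC10, SELP, TTYH1 and CDHR1, which are not epithelial markers and did not pass. CEACAM5, a glycoprotein of epithelial tumours, fell by 1.71 ± 0.10 (log2, SE), the mucin MUC1 by 1.45 ± 0.11 and ST14, the membrane protease matriptase, by 1.28 ± 0.17. CLDN7, the claudin that binds EPCAM, fell from 10.12 ± 0.064 to 9.51 ± 0.14 (log2, SD, n = 3). TSPAN8 rose from 4.57 to 5.57, a call lost without H69 replicate 1 or H69 replicate 3 (limma adjusted p = 0.0553 and 0.0512). E-cadherin, CDH1, had a difference of -0.070 with a 95% interval of -0.46 to 0.32, and its sign turned without H69 replicate 2 (0.011) or H69M replicate 3 (0.099).

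The ligand of KIT, like KIT itself, did not pass. KITLG, stem cell factor, went from 7.71 ± 0.017 to 7.66 ± 0.052 (log2, SD, n = 3; difference -0.049, 95% interval -0.18 to 0.082). Of 26 measured genes of KIT signalling and related receptors, 9 rose and 4 fell (median 0.081). Among all genes, 21.0% were called higher and 23.2% lower. The related receptor genes PDGFRB (3.15) and PDGFRA (1.58) rose, as did the adaptor SHC1 (2.03) and the kinase LYN (1.62). The 4 lower ones, chosen after seeing their values, were FYN (-0.87), PIK3R1, the regulatory subunit of PI 3-kinase (-0.67), the phosphatase PTPN6 (-0.66) and GATA2 (-0.26). The call of GATA2 was lost without H69 replicate 2, H69 replicate 3 or H69M replicate 2 (limma adjusted p = 0.0716, 0.0510 and 0.0646).

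Of 21 other stem and tumour-initiating surface markers measured, 6 rose and 6 fell (median -0.069). These counts too are near the shares of all genes, 21.0% called higher and 23.2% lower. CD55, a complement regulator, rose by 2.94 ± 0.12 (log2, SE) and PLAUR, the urokinase receptor, by 2.53 ± 0.096. LGR6, a receptor for R-spondins, fell by 1.64 ± 0.12, NCAM1 (CD56) by 1.35 ± 0.065 and the chemokine receptor CXCR4 by 1.09 ± 0.19.

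**Figure D3:**
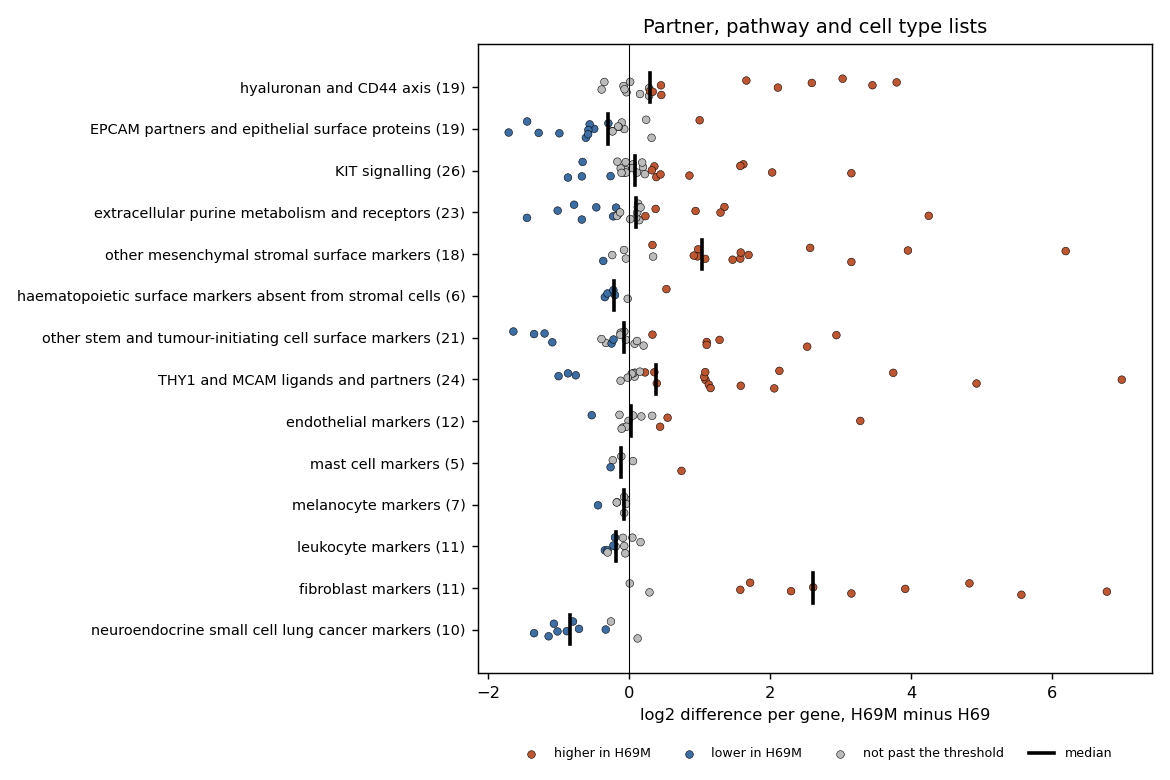
Log2 difference between H69M and H69 for every measured gene of each list (number of genes in brackets; orange higher, blue lower, grey not past the threshold), with the list's median as a black line. The stromal surface list has its median at 1.03 and the list of EPCAM partners and epithelial surface proteins at -0.30. Genes in more than 1 list are drawn in each.

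Since these markers are shared with other cell types, lists for those types were read in the same arrays. Their counts stand beside the shares of all genes, 21.0% called higher and 23.2% lower. Fibroblast markers moved with the stromal ones: 9 of 11 rose and 0 fell (9 and 0 at an unadjusted p under 0.05 by limma), with LUM (6.78), PRRX1 (5.57), COL1A1 (4.83) and FAP (3.92) in front, while TCF21 (0.29) and DPT (0.0084) did not pass. Their summed level, on the linear scale, lay between 810 and 840 in the H69 arrays and between 9017 and 11737 in the H69M arrays, and its part in the rise of NT5E, THY1, MCAM and CD44 was not tested. Endothelial markers, which go with MCAM, had 3 of 12 higher and 1 lower, with summed levels of 724 to 772 in H69 and 775 to 1044 in H69M. TEK rose by 3.28 ± 0.46 (log2, SE; 3.91 without H69M replicate 3), ESAM by 0.55 and EMCN by 0.44 (lost without H69 replicate 1 or 2, limma adjusted p = 0.0622 and 0.0704), and CLDN5 fell by 0.53. The defining genes PECAM1 (-0.14), CDH5 (-0.0090) and VWF (-0.090) did not pass; PECAM1 and VWF passed as lower with centred arrays (limma adjusted p = 0.0266 and 0.0321).

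KIT is also a marker of mast cells and melanocytes, and MCAM of melanocytes. Of 5 mast cell genes, CPA3 rose by 0.74 and GATA2 fell by 0.26; the summed level was 223 to 232 in H69 and 185 to 225 in H69M. Of 7 melanocyte genes, 0 rose and GPR143 fell by 0.44 (0 and 2 at an unadjusted p under 0.05 by limma), with summed levels of 237 to 240 and 212 to 224. Of 11 leukocyte genes, 0 rose and 4 fell (0 and 4 at an unadjusted p under 0.05 by limma), with summed levels of 445 to 471 and 413 to 425. These 4 are PTPRC, CD14, CD79A and CD3E, already counted among the haematopoietic markers, so they are not a separate result. The calls of CD79A and CD3E were lost under several alternatives, as given there. The median levels of the mast cell, melanocyte and leukocyte lists were low, at 4.08, 5.01 and 4.87 (log2) in H69. Without a detection call, whether most of these genes were detected is not known.

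In the reference gene order, the nearest measured genes on each side of a member were read. Over all genes, 21.0% were called higher and 23.2% lower. MCAM and THY1 lie close together on chromosome 11, with 2 measured genes between them. Of these, RNF26 rose by 0.27 and USP2 fell by 1.58, while MCAM and THY1 rose by 2.61 and 2.37. CBL, next to MCAM on its other side, rose by 0.86. Of the 10 nearest measured genes, 5 were higher and 2 lower around THY1, and 4 higher and 2 lower around MCAM, each count including the other marker. CD44, elsewhere on that chromosome, rose by 1.63 while 8 of its 10 nearest measured genes fell (median -0.43), the next one, SLC1A2, by 1.48.

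NT5E, on chromosome 6, had 6 of 10 neighbours lower and 1 higher (median -0.54). The higher one, TBX18, rose by 2.15. KIT lies between PDGFRA and KDR on chromosome 4, and those receptor genes rose by 1.58 and 0.39 while KIT did not pass. Of its 10 neighbours, 3 were higher, 1 was lower and 6 did not pass. CD24 had 3 of 10 neighbours higher and 4 lower. EPCAM had 1 higher and 5 lower, and PROM1 3 higher and 0 lower (limma, 3 and 0 at an unadjusted p under 0.05). With only 10 genes each, these counts were not tested against the shares of all genes (21.0% higher and 23.2% lower).

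**Figure D4:**
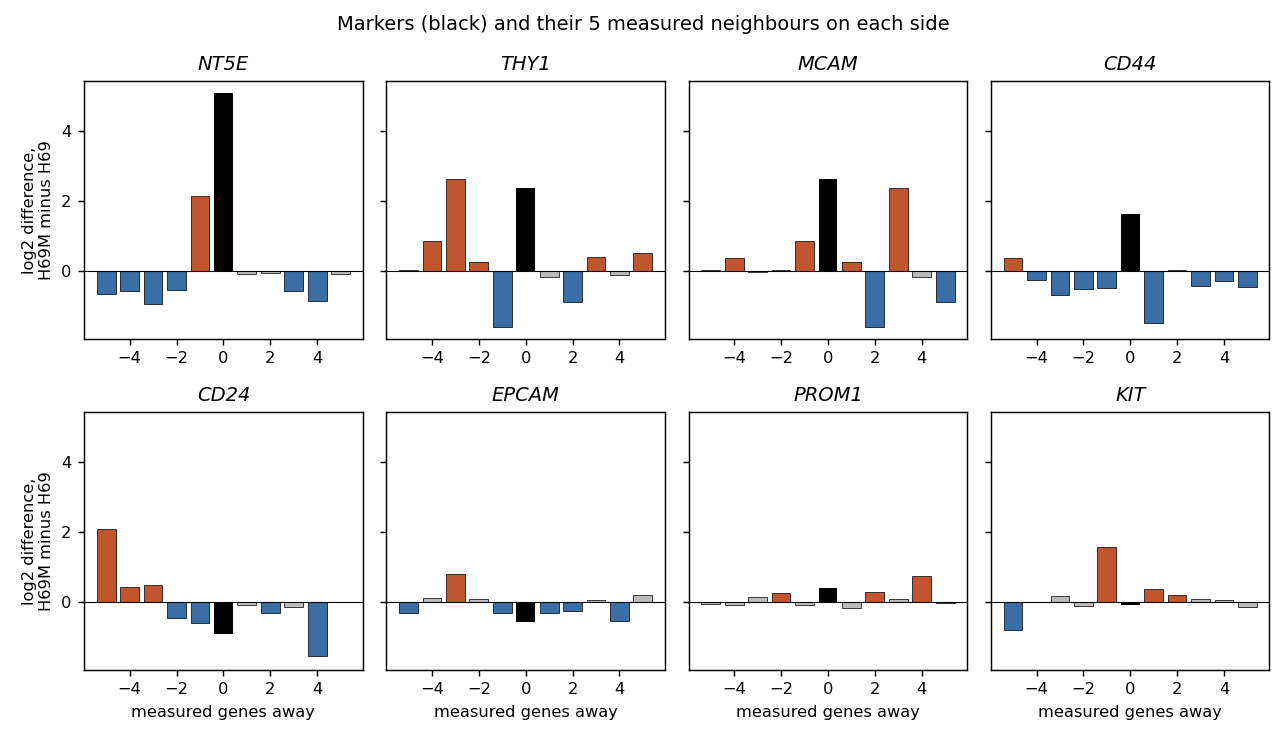
Log2 difference between H69M and H69 for each marker (black) and for the 5 measured genes on each side in the reference gene order (orange higher, blue lower, grey not past the threshold); the x axis counts genes, not bases. CD44 and NT5E stand above neighbours with medians of -0.43 and -0.54.

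The genes with the most similar pattern over the 6 arrays were found by the root mean square distance between log2 values, each gene centred on its H69 mean. With arrays of H69 and H69M only, a small distance mostly means a similar log2 difference between the lines. For NT5E they were GPX8 (distance 0.0734), LGALS1 (0.138) and CALD1 (0.175). For THY1 they were EFEMP2 (0.0524), CTSB (0.105) and COL3A1 (0.117), for MCAM PAPSS2 (0.0698), ALPK2 (0.0718) and EPAS1 (0.0772), and for CD44 UGDH (0.0322), EDIL3 (0.0394) and MDK (0.0517). UGDH makes the UDP-glucuronic acid that hyaluronan is built from. The genes nearest to CD24 were CBLN1 (0.0362), AK5 (0.037) and FREM2 (0.0422), and those nearest to EPCAM were WNK2 (0.0484), KIF5C (0.0509) and SNORD43 (0.0526). PROM1 was followed by S1PR5 (0.039), RHBDL3 (0.0437) and USP11 (0.0446), and KIT by DCAF4L2 (0.0376), MREG (0.0465) and MOGAT2 (0.0589). No member was among the 3 nearest genes of another, because the members' own log2 differences lay too far apart. Shared regulation was not tested for any of these genes.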

How the data were processed

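The authors deposited log2 values per probe set for 6 arrays, made by RMA per the submitters' processing notes, which also list limma; versions, software and build were not stated there. RMA in its common form subtracts background, quantile normalizes and applies median polish. Folds of dim genes can be compressed in such values. The 3 H69 and 3 H69M arrays were grouped by title. Of 32321 probe sets, 19158 had 1 symbol in the platform annotation, covering 18404 genes; the brightest probe set stood for each gene. H69M was compared with H69 by limma 3.58.1 in R 4.3.3 (lmFit, eBayes, two-sided, group only) on the values as deposited, with Benjamini-Hochberg adjustment over all genes. The code was tested on simulated data. Python 3.11.15 made summaries and plots.

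The members and lists were chosen with earlier results of these data known. Of 219 listed symbols, 193 had a probe set and were used. By rule, named genes were the members, up to 4 passed genes with the largest change per list, 20 fixed partners (17 measured) and the 3 genes nearest each member. Other genes were named outside this rule, after their values were seen or because they did not pass. Among them are RDX, UCHL1, CHGA, PECAM1, CDH5, VWF, TCF21, DPT and the neighbours named. Neighbours are the 5 measured genes on each side in RefSeq (GRCh38.p14). Precision is set by having 3 arrays a line (median SE 0.0752, log2). The alternatives were the replicate block, centring, repeated quantile normalization, filters on low levels, eBayes trend or robust, averaging probe sets per gene, and leaving out each array.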

Additional observations from a re-analysis of the deposited data

How the results depend on the processing

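Under the 14 alternatives, 110 of 112 member values kept their direction and side of the threshold; the exceptions are KIT values. Leaving out 1 array moved KIT between -0.23 and 0.046 (limma adjusted p from 0.0476 to 0.867), NT5E between 4.96 and 5.19, MCAM between 2.48 and 2.71, THY1 between 2.25 and 2.52, CD44 between 1.60 and 1.70, PROM1 between 0.32 and 0.48, EPCAM between -0.70 and -0.45 and CD24 between -1.03 and -0.77. With H69M replicate 1 left out, 3 members were lower in place of 2. Same-numbered arrays did not deviate together over all genes (r of 0.0209, 0.00717 and 0.00991), and no H69 array correlated best with its own number. Such correlations cannot show whether same-numbered arrays were handled together, so a pairing was neither found nor excluded. With the replicate block 3617 genes were higher and 4021 lower, and the members stayed at 5 and 2. Centring the arrays gave 3110 higher and 6827 lower.

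Of 392 list counts, 341 stayed within 1.5 times; the others are mostly small counts. With the replicate block, 1 hyaluronan axis gene was lower. With centred arrays, 3 hyaluronan axis, 2 stromal surface, 3 endothelial and 3 melanocyte genes were lower, and with quantile normalization again 3 hyaluronan axis and 2 stromal. With eBayes trend, 1 neuroendocrine gene was higher, and 2 hyaluronan axis, 2 haematopoietic and 2 leukocyte genes were lower. Filters on level leave genes out of the lists and adjust over fewer genes, and counts moved both ways. Below the 25th percentile left out, 0 epithelial, 1 endothelial and 0 mast cell genes were higher, and 2 hyaluronan axis, 2 haematopoietic, 0 melanocyte and 2 leukocyte genes lower. Below the median left out, 0 epithelial, 2 purine, 8 stromal, 0 haematopoietic, 8 THY1 and MCAM partner, 0 endothelial, 0 mast cell and 4 fibroblast genes were higher, and 1 hyaluronan axis, 7 epithelial, 4 purine, 0 stromal, 0 haematopoietic, 0 melanocyte and 0 leukocyte genes lower.

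Leaving out 1 array, the genes higher ranged from 0 to 3 for the epithelial and from 2 to 5 for the endothelial list. Genes lower ranged from 0 to 2 for the stromal, 2 to 3 for the haematopoietic, 1 to 2 for the melanocyte, 2 to 4 for the leukocyte, 0 to 2 for the mast cell and 0 to 1 for the hyaluronan axis list. Of 72 list genes named, members left out, 16 changed call or sign under an alternative; the cause was not tested. Dim genes carry no detection call.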
